A study of Mus musculus with 21 samples.

Results

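Proximal signalling of the T cell receptor was examined through 9 genes, chosen by name from the 12994 genes of the spleen table: the kinases Lck, Fyn and Zap70, the adaptors Lat and Lcp2, the phosphatase Ptprc, the receptors Cd5 and Cd6, and Themis. All 9 were listed, and all 9 passed the filter on low values (a mean normalized count above 2) in every comparison. Female C57BL6/J mice gave spleen CD4+ and CD8+ T cells by cell sorting, and their RNA was sequenced, with a molecular tag on each cDNA. Mice were placed in an enriched environment (EE) or a standard environment (SE) at 4 weeks of age and stayed there for 4 weeks. EE cages of 9120 cm2 held 12 to 15 mice with nesting material, running wheels, tunnels and toys that were changed regularly, and SE cages of 666 cm2 held 5 to 6 mice and no objects. There were 6 CD4+ EE, 5 CD4+ SE, 6 CD8+ EE and 4 CD8+ SE samples, each from 1 mouse, and 9 of the 12 mice gave both populations. The labels name no transgene and no agent. The labels state that the mice of each environment shared a cage, so the effect of a cage and that of its environment cannot be told apart.

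When a peptide is recognised by the receptor of a T cell, Lck phosphorylates the CD3 chains, Zap70 binds to them and phosphorylates the adaptors Lat and SLP-76 (the product of Lcp2), and these collect the enzymes that start calcium, Ras and NF-kB signalling. Lck is carried by the CD4 and CD8 coreceptors, and Fyn is a second kinase of the same family that binds the CD3 chains. CD45, the product of Ptprc, removes an inhibitory phosphate from Lck, CD5 and CD6 are related surface receptors that modulate the signal, and Themis is an adaptor-like protein needed in thymocyte development.

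The values are normalized counts, that is, tagged molecules scaled by a size factor for each sample. Samples held 145546 to 221454 molecules in all. Cd3d, Cd3e and Cd3g were present in every sample and did not pass the test between the populations (adjusted p of 0.842, 0.469 and 0.810 in limma), whereas Cd247, the zeta chain that binds Zap70, was higher in CD4+ cells by 0.49 on the log2 scale (SE 0.13, adjusted p = 0.01014). Markers of other cells were sparse. The summed level of 11 B cell genes was 24.7 to 117.9 (median 75.6) in CD4+ samples and 32.9 to 67.0 (median 44.7) in CD8+ samples, and 3 of the 5 that could be tested were higher in CD4+ cells. The B cell marker Ms4a1 was at 0 in 10 of 10 CD8+ samples and in 2 of 11 CD4+ samples. Of the 8 myeloid genes 4 were listed, with a summed level of at most 18.9, and of the 3 NK genes 1 was listed, at 1.83 or less. The 5 erythroid genes summed to 580.5 in CD8+ EE replicate 6 and 1033 in CD8+ SE replicate 3, against at most 26.7 in the other 19 samples, although red cells had been lysed before the sort. Mitochondrial genes took 1.76% to 2.61% of the molecules. In sorted bulk RNA, fewer cells of a type and less RNA per cell cannot be told apart.

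The first comparison asked which of these genes differ between the T cell populations. Cd5, Cd6 and Fyn were higher in CD4+ than in CD8+ T cells, by 2.30-fold, 1.73-fold and 1.44-fold on the scale of log2(normalized count + 1). The other 6 genes did not pass the test. Thus 3 of 9 genes had an adjusted p under 0.05, all higher in CD4+ cells, whereas 4.4% of the 7938 genes tested passed, 2.33% as higher in CD4+ cells (limma over all 21 samples, Benjamini-Hochberg adjustment over all genes tested). All 9 genes had a mean above 10, and in a fit of the 2727 genes above that limit 216 passed, 99 as higher in CD4+ cells. Since the 9 genes were chosen with earlier results of these data known, these shares are a description. The median log2 difference over the 9 genes was 0.21, against -0.01 over all genes tested. Cd5, Cd6 and Fyn were also the members whose CD4+ and CD8+ samples did not overlap, a separation in this direction shown by 0.34% of the genes tested.

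**Figure D1:**
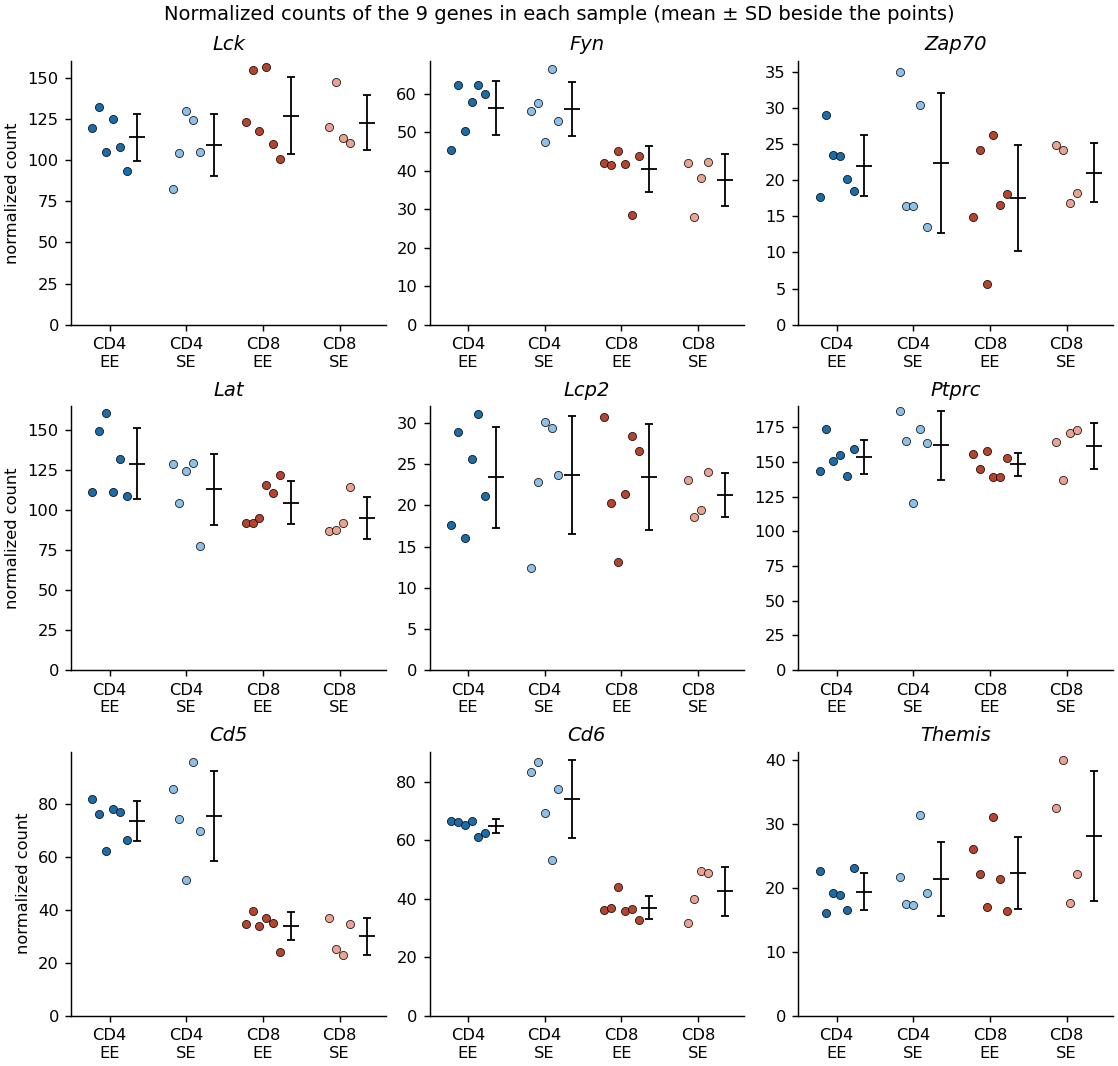
Normalized counts (vertical axes, each from 0) of the 9 genes in each sample, with points for single samples of the CD4+ EE, CD4+ SE, CD8+ EE and CD8+ SE groups and the mean ± SD beside them. For Cd5 the CD4+ samples lie between 51.2 and 95.9 and the CD8+ samples between 23.0 and 39.6, while for Ptprc the populations cover much the same range.

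Among the kinases, Fyn (ENSMUSG00000019843, chr10:39368855-39565381, plus strand, GRCm38) was the one that passed the test. Its normalized count in CD4+ EE samples ranged from 45.3 to 62.2 (median 58.9), and the 5 CD4+ SE samples had 55.6, 57.7, 47.5, 66.5 and 52.9. In CD8+ EE samples it ranged from 28.5 to 45.1 (median 41.8), and the 4 CD8+ SE samples had 42.0, 27.9, 38.0 and 42.3. Every CD4+ sample was above every CD8+ sample, but the margin was narrow, since the lowest CD4+ sample had 45.33 and the highest CD8+ sample 45.13. The means were 56.2 ± 6.61 (SD, n = 11) and 39.3 ± 6.11 (SD, n = 10), a log2 difference of 0.52 (SE 0.12, adjusted p = 0.001911 in limma). The call was lost when only 1 environment was used, with a difference of 0.47 in EE samples (adjusted p = 0.0819) and 0.58 in SE samples (adjusted p = 0.182).

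Lck (ENSMUSG00000000409, chr4:129548344-129573641, minus strand), the kinase held by both coreceptors, pointed the other way without passing the test. CD4+ EE samples had 93.1 to 131.9 (median 113.8) and CD4+ SE samples 82.4, 104.3, 129.8, 124.4 and 104.7. CD8+ EE samples had 100.5 to 156.3 (median 120.2) and CD8+ SE samples 119.9, 147.1, 113.0 and 110.5. The populations overlapped widely. The log2 difference was -0.16 (SE 0.09, 95% interval -0.35 to 0.03, adjusted p = 0.45 in limma). Within mice the sign was the same each time: Lck was lower in the CD4+ sample in 9 of 9 mice, by 0.03 to 0.54 on the log2 scale. The share of all genes with such a run of signs was not computed. A fit with the mouse as a block gave -0.20 (SE 0.09), which did not pass either (adjusted p = 0.331).

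Zap70 (ENSMUSG00000026117, chr1:36761798-36782818, plus strand), the kinase recruited to the phosphorylated CD3 and zeta chains, was a low count gene with wide spread. Its normalized count ranged from 13.5 to 35.0 in CD4+ samples (median 20.1) and from 5.64 to 26.2 in CD8+ samples (median 18.2), so that the populations overlapped. The log2 difference was 0.21 (SE 0.19, adjusted p = 0.68), with a 95% interval of the fold from 0.888 to 1.51. It was 0.08 without CD8+ EE replicate 3, the sample with 5.64, and 0.12 without CD4+ SE replicate 1. With EE samples only it was 0.42, and with SE samples only 0.0092.

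Since Fyn and Lck are kinases of one family, their ratio was taken within each sample, where the size factor cancels except through the pseudocount. The mean log2 ratio of Fyn to Lck in CD4+ samples was -0.97 ± 0.27 (SD, n = 11), and in CD8+ samples -1.65 ± 0.35 (SD, n = 10). The ratio was thus 1.60-fold higher in CD4+ cells (permutation test with 100000 resamples, two-sided, p = 6e-05, adjusted p = 0.00036 over 6 comparisons of ratios). This test treated the samples as independent, although some mice gave both populations. The ranges still met, from -1.43 to -0.56 in CD4+ and from -2.36 to -1.18 in CD8+ samples. EE and SE did not differ in this ratio beyond the spread, in CD4+ cells (difference -0.06, exact permutation test, adjusted p = 0.791) or in CD8+ cells (0.07, exact permutation test, adjusted p = 0.791).

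The adaptor genes did not pass the test between the populations. Lat (ENSMUSG00000030742, chr7:126363824-126369570, minus strand), the membrane scaffold phosphorylated by Zap70, came nearest. CD4+ EE samples had 108.8 to 160.3 (median 121.5) and CD4+ SE samples 128.7, 104.3, 124.3, 129.2 and 77.7. CD8+ EE samples had 91.8 to 121.9 (median 102.8) and CD8+ SE samples 86.5, 87.5, 91.8 and 114.4. In 6 of the 11 CD4+ samples Lat was above every CD8+ sample, and 1 CD4+ SE sample, replicate 6, was below all of them. The log2 difference was 0.26 (SE 0.10, adjusted p = 0.131 in limma). Without CD4+ SE replicate 6 it was 0.32 and passed (adjusted p = 0.0259), and with the mouse as a block it was 0.18 (adjusted p = 0.49).

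Lcp2 (ENSMUSG00000002699, chr11:34046920-34092295, plus strand), which encodes the cytosolic adaptor SLP-76, had nearly the same level in both populations, with a mean of 23.6 ± 6.26 in CD4+ (SD, n = 11) and of 22.6 ± 5.17 in CD8+ samples (SD, n = 10). The log2 difference was 0.05 (SE 0.17, adjusted p = 0.935), and a fit with the mouse as a block turned its sign (-0.10, adjusted p = 0.875). Ptprc (ENSMUSG00000026395, chr1:138062861-138175708, minus strand), the CD45 phosphatase, had 157.4 ± 18.4 (SD, n = 11) and 153.4 ± 13.3 (SD, n = 10). Its difference was 0.02 (SE 0.08, adjusted p = 0.936), and the interval of the fold, from 0.911 to 1.13, was the narrowest of the 9 genes. Antibodies against CD45 and CD3 are part of the sorting gate described in the study's methods, so that all sorted cells bore this protein.

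Themis (ENSMUSG00000049109, chr10:28668360-28883818, plus strand) ranged from 16.1 to 31.3 in CD4+ samples (median 19.1) and from 16.3 to 40.0 in CD8+ samples (median 22.2). The highest values were in CD8+ SE replicates 1 and 2, with 32.5 and 40.0. The log2 difference of -0.26 (SE 0.17, adjusted p = 0.51) was within the spread and was -0.16 without CD8+ SE replicate 2, and Themis was lower in the CD4+ sample in 7 of 9 mice.

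**Figure D2:**
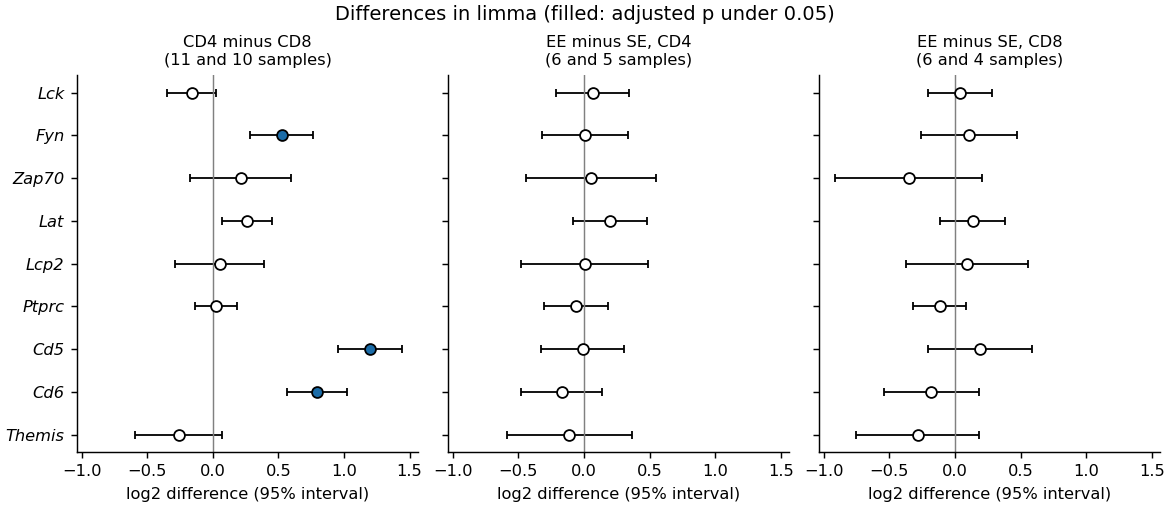
Log2 differences of the 9 genes with 95% intervals (horizontal axis, shared by the panels) for CD4+ minus CD8+ cells, EE minus SE in CD4+ cells and EE minus SE in CD8+ cells. Filled points have an adjusted p under 0.05 in limma, and only Fyn, Cd5 and Cd6 in the first panel are filled.

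Cd5 (ENSMUSG00000024669, chr19:10717116-10739002, minus strand) showed the largest difference of the 9 genes. Its normalized count was 62.0 to 81.9 (median 76.5) in CD4+ EE samples and 85.5, 74.1, 51.2, 95.9 and 69.8 in the CD4+ SE samples. It was 24.1 to 39.6 (median 34.6) in CD8+ EE samples and 36.8, 25.1, 23.0 and 34.6 in the CD8+ SE samples. The lowest CD4+ sample lay well above the highest CD8+ sample, 51.2 against 39.6. The means were 74.3 ± 12.0 (SD, n = 11) and 32.3 ± 5.96 (SD, n = 10), a log2 difference of 1.20 (SE 0.12, adjusted p = 6.25e-12 in limma). The fold of 2.30 had a 95% interval from 1.94 to 2.72.

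Cd6 (ENSMUSG00000024670, chr19:10789341-10830058, minus strand), the relative of Cd5 that binds CD166, differed in the same direction. Its normalized count was 61.3 to 66.8 (median 65.8) in CD4+ EE samples and 83.4, 86.9, 69.5, 53.2 and 77.7 in the CD4+ SE samples. It was 32.6 to 44.2 (median 36.3) in CD8+ EE samples and 31.7, 40.0, 49.5 and 49.0 in the CD8+ SE samples. CD4+ and CD8+ samples did not overlap, the nearest being CD4+ SE replicate 5 with 53.2 and CD8+ SE replicate 3 with 49.5. The means were 69.1 ± 9.92 (SD, n = 11) and 39.2 ± 6.33 (SD, n = 10), a log2 difference of 0.79 (SE 0.11, adjusted p = 2.787e-07 in limma). The fold of 1.73 had a 95% interval from 1.48 to 2.03.

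The mean log2 ratio of Cd6 to Cd5 was -0.10 ± 0.34 (SD, n = 11) in CD4+ and 0.28 ± 0.40 (SD, n = 10) in CD8+ samples. The difference of -0.38 did not pass over the 6 comparisons of ratios (permutation test with 100000 resamples, two-sided, adjusted p = 0.0839). This test did not use the mouse, and a paired test of the ratio was not run. Within the mice that gave both populations, the mean log2 difference was 0.85 for Cd6 and 1.16 for Cd5. Within populations EE and SE did not differ in the Cd6 to Cd5 ratio beyond the spread, with differences of -0.16 in CD4+ cells (exact permutation test, adjusted p = 0.727) and -0.37 in CD8+ cells (exact permutation test, adjusted p = 0.362). These values depended on single samples. In CD4+ cells the difference was -0.05 without SE replicate 4 and -0.37 without SE replicate 5 (exact permutation test, unadjusted p = 0.895 and 0.019). In CD8+ cells it was -0.18 without SE replicate 3 and -0.61 without SE replicate 1 (exact permutation test, unadjusted p = 0.452 and 0.0238). Although both genes were higher in CD4+ cells, they did not follow each other from sample to sample within the groups. Their correlation of log2 values was 0.79 over all 21 samples and -0.17 after the group means were taken out, as a description.

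**Figure D3:**
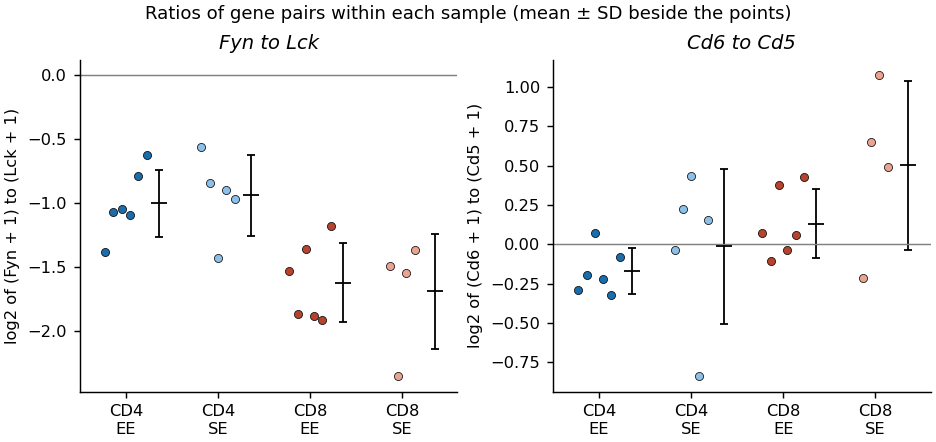
Log2 ratios within each sample (vertical axes) of Fyn to Lck and of Cd6 to Cd5, with points for samples of the 4 groups and the mean ± SD beside them. The Fyn to Lck ratio is higher in CD4+ samples, from -1.43 to -0.56, than in CD8+ samples, from -2.36 to -1.18, and the grey line marks equal values.

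The difference of the 3 genes was seen in each mouse with both populations. This sign follows from the lack of overlap between CD4+ and CD8+ samples, so only the sizes are added here. How many of all genes had the same sign in 9 of 9 mice was not counted. Cd5 was higher in the CD4+ sample in 9 of 9 mice, by 0.85 to 1.65 on the log2 scale (median 1.12). Cd6 was higher in 9 of 9 mice, by 0.55 to 1.37 (median 0.84), and Fyn in 9 of 9, by 0.11 to 1.10 (median 0.44). With the mouse as a block the same count of 3 members passed. Of the members without a call, Lck was lower in CD4+ cells in 9 of 9 mice and the others had mixed signs, Zap70 and Lat being higher in CD4+ cells in 6 of 9 mice, and Lcp2 and Ptprc in 5 of 9.

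**Figure D4:**
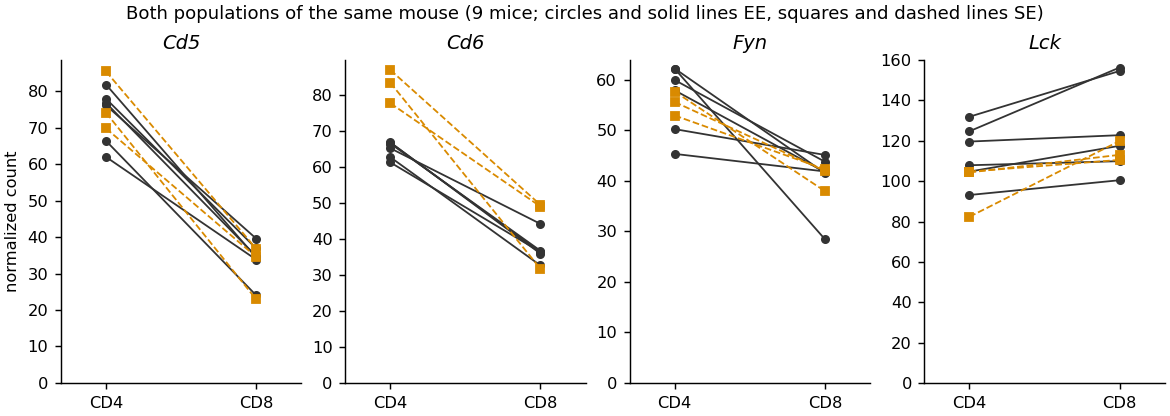
Normalized counts (vertical axes, each from 0) of Cd5, Cd6, Fyn and Lck in the CD4+ and CD8+ samples of the same mouse, one line for each of 9 mice, with 6 EE mice as circles on solid lines and 3 SE mice as squares on dashed lines. The lines of Cd5, Cd6 and Fyn fall from CD4+ to CD8+ in 9 of 9 mice, and those of Lck rise in 9 of 9.

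B cell genes and haemoglobin genes varied along with the populations or with single libraries, and their values can be set beside these results. The CD4+ sample with the lowest B cell sum, SE replicate 1 with 24.7, had Cd5, Cd6 and Fyn at 85.5, 83.4 and 55.6. For these genes every CD4+ sample was above every CD8+ sample, so the rank of this sample adds nothing. Whether B cell RNA had a part in the differences was not tested. The 2 CD8+ libraries with high haemoglobin were among the 3 CD8+ libraries with the lowest Cd5, at 24.1 and 23.0. Without both of them, in a comparison chosen after the data were seen, the log2 differences were 1.10 for Cd5, 0.82 for Cd6 and 0.54 for Fyn, and 3 members passed as before.

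The upstream sequences of Cd5 and Fyn are shown as those of the called members that have an entry in the promoter table used. They are 200 bases that end 50 bases before the start site RefSeq gives on GRCm38.p6, on the strand of the gene. The Cd5 window lies outside the GENCODE bounds of its gene given above, whereas that of Fyn lies within them, beginning 694 bases past the start of the gene. Neither overlaps an annotated exon of its gene, so the Fyn window is intronic for a transcript that starts further upstream. Short motifs of lymphoid promoters were searched on both strands, GGAAG (ETS core), TGTGGT (RUNX), CAGGTG and CAGCTG (E-boxes), none of which overlaps another. Capitals mark each match. The window of Cd5 is chr19:10739025-10739224 (minus strand) and that of Fyn is chr10:39369549-39369748 (plus strand).

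Cd5: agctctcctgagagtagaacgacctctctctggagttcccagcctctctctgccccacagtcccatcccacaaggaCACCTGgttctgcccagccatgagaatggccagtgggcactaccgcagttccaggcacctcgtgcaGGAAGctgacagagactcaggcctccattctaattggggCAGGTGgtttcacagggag

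Fyn: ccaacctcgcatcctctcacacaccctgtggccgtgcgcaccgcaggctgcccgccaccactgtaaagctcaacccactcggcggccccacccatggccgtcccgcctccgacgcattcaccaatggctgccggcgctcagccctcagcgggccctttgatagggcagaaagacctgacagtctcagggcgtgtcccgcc

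The Cd5 window held 1 match of GGAAG and 2 of CAGGTG, one of them read on the other strand as CACCTG. The Fyn window held 0 matches of the 4 motifs and was richer in G and C, at 67.5% against 58.5% in Cd5 and a median of 51.5% over all windows. Among all 32851 windows, 55.0% held GGAAG, 11.6% TGTGGT, 14.4% CAGGTG and 10.3% CAGCTG, so matches of this kind are common. Of the 9 genes 8 had a window. The entry for Cd6 is missing.

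Cd5 and Cd6 lie on the same strand of chromosome 19, with 50338 bases and a single annotated gene between them. That gene, the non-coding A430093F15Rik, had a log2 difference of 1.03 between the populations that did not pass (adjusted p = 0.111). Of the 8 genes tested within 250 kb, this one included and Cd5 and Cd6 left out, 1 passed, the non-coding AW112010, which was lower in CD4+ cells by -0.67 (adjusted p = 0.001594). These neighbours were named after their values were seen. Among genes that overlap members, A130071D04Rik lies within Ptprc on the same strand (mean 9.74), and reads of the pair may have been split between them. The antisense gene Gm16365 within Fyn had a mean of 0.303.

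The genes whose profiles were most like those of the called members, among 2718 genes with a mean above 10, were genes that each passed the test between the populations themselves. The closest to Cd5 were Cd4 (Pearson r = 0.91 over 21 samples), a gene of the sort, and Tspan32 (0.91), which encodes a tetraspanin. The closest to Cd6 were Cd4 (0.91) and Ly6c1 (0.89), and those to Fyn were Fkbp1a (0.80), which encodes the binding protein of FK506, and Ly6a (0.79), which encodes Sca-1. The call for Fkbp1a was lost with the mouse as a block (0.37, adjusted p = 0.165) and with SE samples only (0.37, adjusted p = 0.637). After the group means were taken out the values fell to 0.00 for Cd5 with Cd4, 0.16 with Tspan32, 0.52 for Cd6 with Cd4, 0.62 with Ly6c1, 0.60 for Fyn with Fkbp1a and 0.33 with Ly6a. These are descriptions over samples that share their size factors and population.

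The spread of the members between samples of a group was compared with the spread that counting molecules alone would give. The variance was 3.12 times the counting variance for Lck, 2.88 times for Lat and 2.29 times for Zap70, against a median of 1.67 over 2727 genes with a mean above 10 (quartiles 1.29 and 2.25). Fyn (0.995) and Cd6 (1.09) varied about as much as counting alone gives, and Cd5 (1.75), Ptprc (1.70), Themis (1.67) and Lcp2 (1.60) were near the median. With about 21.4 molecules of Zap70, 24.2 of Lcp2 and 23.4 of Themis per sample, counting alone gave a coefficient of variation of 20.3% to 21.6% for these genes, but 7.86% for Ptprc and 9.02% for Lck.

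The wider pathway was described with 58 genes in 4 lists, of which 53 had a mean above 2. Between the populations 2 of the 53 were higher and 1 lower in CD4+ cells, a share near the 4.4% of all genes tested that passed in either direction. Trat1, a transmembrane adaptor that binds the receptor complex, was higher in CD4+ cells at 13.9 ± 6.72 (SD, n = 11) against 5.27 ± 1.70 (SD, n = 10), a log2 difference of 1.17 (adjusted p = 0.001108 in limma). Ptpn7, a phosphatase that acts on MAP kinases, was higher at 12.9 ± 4.79 (SD, n = 11) against 6.64 ± 2.91 (SD, n = 10), a difference of 0.83 (adjusted p = 0.03595). Sla2, an adaptor that dampens receptor signalling, was lower at 11.7 ± 4.85 (SD, n = 11) against 20.5 ± 6.73 (SD, n = 10), a difference of -0.80 (adjusted p = 0.01039). The call for Trat1 held with each sample left out in turn but not with SE samples only (1.19, adjusted p = 0.164). That for Ptpn7 held in 8 of 21 such fits, and was lost with EE samples only (1.04, adjusted p = 0.0709) and with SE samples only (0.61, adjusted p = 0.658). The call for Sla2 held in 20 of 21 and was lost without CD8+ SE replicate 3 (-0.67, adjusted p = 0.0746), one of the libraries with haemoglobin. It was also lost without both of these libraries (-0.71, adjusted p = 0.055) and with SE samples only (-0.57, adjusted p = 0.594).

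By role, 0 of 7 kinases, 1 of 11 adaptors (Trat1), 0 of 15 effectors and 2 of 20 inhibitors (Ptpn7 and Sla2) passed, against 4.4% of all genes tested. The smallest p among the kinases belonged to Csk, which places the inhibitory phosphate on Lck, with a log2 difference of 0.25 (adjusted p = 0.292). The median log2 difference was -0.20 over the kinases, 0.25 over the adaptors, 0.08 over the effectors and 0.13 over the inhibitors.

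**Figure D5:**
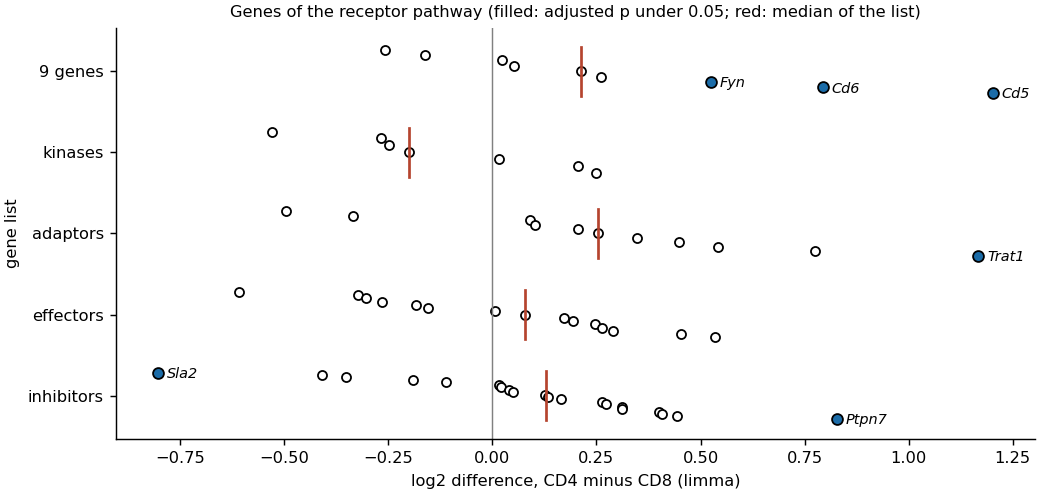
Log2 differences between CD4+ and CD8+ cells (horizontal axis) of the 9 genes and of the tested genes of the 4 pathway lists, one point a gene. Filled and named points have an adjusted p under 0.05, and red bars mark the medians, which range from -0.20 in the kinases to 0.25 in the adaptors.

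The second comparison asked whether housing in EE changed these genes within a population. In CD4+ T cells limma called 0 of the 9 genes after adjustment, and at an unadjusted p under 0.05 the count was also 0. Of the 7939 genes tested, 0.0126% passed the first limit and 5.82% the second. edgeR and DESeq2 on the recovered molecules also called 0 members. The EE and SE samples overlapped for each of the 9 genes, as they did for all but 0.453% of the genes tested.

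The log2 differences, EE minus SE, ran from -0.17 for Cd6 to 0.20 for Lat, with a median of 0.00 over the 9 genes. Single samples moved both ends of this range. Lat was at 0.07 without SE replicate 6 and 0.13 without EE replicate 3, and Cd6 at -0.11 without SE replicate 3 and -0.28 without SE replicate 5. The mean of Lat was 128.7 ± 22.1 with EE (SD, n = 6) against 112.9 ± 22.1 with SE (SD, n = 5), a difference smaller than its SD. That of Cd6 was 64.9 ± 2.36 with EE (SD, n = 6) against 74.2 ± 13.4 with SE (SD, n = 5). The 6 EE samples thus lay within a narrow band, and 4 of the 5 SE samples were above it, with replicate 5 below at 53.2. The coefficient of variation of the EE samples, 3.63%, was below the 13.3% that counting alone gives for Cd6. The width of the band is thus not to be read as a trait of the EE group. Over the 9 genes the 95% intervals of the log2 difference reached from -0.59 (the lower bound of Themis) to 0.55 (the upper bound of Zap70).

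In CD8+ T cells, limma again called 0 of the 9 genes after adjustment, and without adjustment 0 were under 0.05. No gene of the 7840 tested passed the adjusted limit (0.0%), and 5.27% passed the unadjusted one. edgeR and DESeq2 called 0 members. The EE and SE samples overlapped for each member, and did not for 1.06% of the genes tested.

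The differences farthest from 0 were those of Zap70 and Themis, and both moved when single libraries were left out. Zap70 averaged 17.6 ± 7.33 with EE (SD, n = 6) against 21.0 ± 4.10 with SE (SD, n = 4), a log2 difference of -0.35 (SE 0.28, adjusted p = 0.963). Themis averaged 22.3 ± 5.60 with EE (SD, n = 6) against 28.1 ± 10.1 with SE (SD, n = 4), a difference of -0.29 (SE 0.23, adjusted p = 0.963). Without CD8+ EE replicate 3 the difference of Zap70 was -0.08. That of Themis was -0.10 without CD8+ SE replicate 2 and -0.48 without CD8+ SE replicate 3. The intervals of the log2 difference over the 9 genes reached from -0.92 (the lower bound of Zap70) to 0.59 (the upper bound of Cd5). Ptprc had the narrowest, from -0.32 to 0.09.

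Whether housing acted differently on the populations was tested by the interaction. For 0 of the 9 genes did the effect of EE differ between CD4+ and CD8+ cells (limma, adjusted p of 0.994 or more, and 0 at an unadjusted p under 0.05, against 0.0% and 4.95% of the genes tested). edgeR and DESeq2 also called 0 members. The largest difference of effects was 0.41 for Zap70 (SE 0.39), with an interval from -0.36 to 1.18, and it was 0.14 without CD8+ EE replicate 3 and 0.26 without CD4+ SE replicate 6. With edgeR and DESeq2 it was 0.24 in both.

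The wider pathway held no adjusted call for housing either. Among its 53 tested genes 0 had an adjusted p under 0.05 for housing in CD4+ cells, in CD8+ cells or for the interaction, and 1, 2 and 2 had an unadjusted p under 0.05. Among them were Sla in CD4+ cells (log2 difference 0.93, adjusted p = 0.823), Vav3 in CD8+ cells (-1.47, adjusted p = 0.92), and Nck1 (1.21, adjusted p = 0.985) and Sla (1.21, adjusted p = 0.994) in the interaction. Without CD4+ SE replicate 6 the values of Sla were 0.22 in CD4+ cells and 0.50 in the interaction, and with edgeR they were 0.48 and 0.68. Sla encodes an adaptor that dampens receptor signalling and Vav3 an exchange factor. Vav3 was low, with a mean of 0.954 in CD8+ EE and 3.87 in CD8+ SE samples. The other genes with the smallest p of their list had adjusted p of 0.835 for Nck1 (0.77), 0.855 for Stim1 (0.54) and 0.855 for Prkd2 (-0.46) in CD4+ cells. In CD8+ cells they were 0.962 for Grap (-0.36) and 0.963 for Dok1 (0.80), and in the interaction 0.994 for Prkd2 (-0.37) and 0.994 for Vav3 (1.34). Of these, Stim1 and Prkd2 in CD4+ cells came as near to 0 as 0.35 and -0.26 with 1 sample left out, Grap and Dok1 in CD8+ cells to -0.21 and 0.42, and Prkd2 in the interaction to -0.17.

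The order of the group means was read for each gene with the overlap of neighbouring groups. For Cd5, Cd6 and Fyn both CD4+ groups stood above both CD8+ groups, and the step between the lower CD4+ group and the higher CD8+ group was the only one without overlap. The lower CD4+ mean and the higher CD8+ mean were 73.5 and 33.9 for Cd5, 64.9 and 42.6 for Cd6, and 56.0 and 40.4 for Fyn. For Lck, Zap70, Lat, Lcp2, Ptprc and Themis all neighbouring groups overlapped.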

How the data were processed

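The spleen libraries were made from sorted CD4+ and CD8+ T cells (21 samples) with a molecular tag on each cDNA. The methods, stated for the choroid plexus libraries of the same protocol, and the submitters' processing notes name cutadapt, STAR 2.4.0a on mm10, counts of molecules by the Drop-seq tools over Ensembl gene models of GRCm38, exclusion of impure CD4+ samples, a filter on low genes and DESeq2. What the authors deposited is thus a signal, namely molecule counts scaled by size factors. The limit of their filter is not given in the sources used here. A label for the number of cells, which runs serially, was set aside.

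Groups came from the labels. Molecules were recovered by dividing each sample by its smallest positive value, and 100% of the values were whole within 0.0001. Since the values are normalized, the tests were made with limma 3.58.1 (R 4.3.3, trend) on log2(value + 1) of the genes whose mean was above 2, with a threshold of 0.05 after Benjamini-Hochberg adjustment over all genes tested. edgeR 4.0.16 and DESeq2 1.42.0 on the recovered molecules were alternatives, as were a pseudocount of 0.5, no filter, a mean above 10, equal totals, a replicate block, 1 environment only, all samples in one fit and each sample left out in turn. Ratios were tested by permutation, without use of the mouse. The other steps used Python 3.11.15 (pandas 2.3.3, NumPy 2.4.6, Matplotlib 3.10.9, SciPy 1.17.1). The limma and edgeR fits of the population and housing comparisons were also run on simulated counts. DESeq2, the interaction, the block fits and the ratio tests were not.

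All 9 genes were named in every comparison. Of the pathway lists, genes past the threshold were named, as was the gene of each list with the smallest p, and for each called member the 2 genes most correlated with it. Some genes that this rule or the marker lists would name are not reported here, although the counts and medians of their lists include them. The members and lists were chosen with earlier results of these data known. By the labels, a CD4+ and a CD8+ sample with the same environment and number came from 1 mouse, which is where the block of the population comparison comes from. Their deviations from the group means correlated at -0.01 to 0.04 over 7938 genes (9 mice). All 46 pairs of samples of one group differed by more than counting error (chi-square test, largest p = 6e-119), so none were merged. Positions are those of GENCODE M21 on GRCm38. Intervals are from limma, and the counting spread covers counting error only.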

Additional observations from a re-analysis of the deposited data

Results flagged for a closer look

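Of 44 groups of 4 to 6 samples examined (the 9 genes and 2 ratios in the 4 groups), 3 held a sample far from the others of its group, where about 2.2 are expected by chance. Each lay in the CD8+ EE group. Fyn was 28.5 in replicate 5, and the nearest of the other 5 samples had 41.5. Cd5 was 24.1 in replicate 6, which is also a library with haemoglobin RNA, and the nearest sample had 33.9. Cd6 was 44.2 in replicate 3, the highest of the group, and the nearest sample had 36.7.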

How the results depend on the processing

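The 3 calls between the populations (Cd5, Cd6 and Fyn) held in each alternative tried, leave-one-out fits included, except that Fyn was lost with 1 environment only (2 members left in each) and Lat was gained without CD4+ SE replicate 6. With the mouse as replicate block 3 members passed, with Fyn at 0.45 (adjusted p = 0.033), and the block changed no call of a member in any comparison. Members called for housing or the interaction stayed at 0 in each alternative.

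The number of genes past the threshold between the populations went from 349 to 216 with a mean above 10 (99 higher, 117 lower in CD4+ cells), 227 with EE samples only and 105 with SE samples only, and was 300 to 362 with a sample left out. For housing in CD4+ cells it went from 1 to 0 (pseudocount of 0.5, mean above 10, replicate block, all samples in one fit), 2 (edgeR) and 3 (no filter), with 0 to 3 when a sample was left out. For housing in CD8+ cells it went from 0 to 3 (no filter, replicate block), with 0 to 3 when a sample was left out. In the housing comparisons the block is a number shared by different mice, whose deviations correlated at 0.008 (CD4+) and 0.005 (CD8+) on average, so it is no pairing by design.

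Log2 differences that turned sign were small and below the threshold on both sides, and the cause was not tested. Between the populations these were Lcp2 (-0.10, block) and Ptprc (-0.0037, SE only). For housing in CD4+ cells they were Zap70 (-0.028 edgeR, -0.021 DESeq2, -0.026 block), Lcp2 (-0.0001 equal totals, -0.019 edgeR, -0.011 DESeq2, -0.062 block) and Fyn (-0.025, block). For the interaction with the block they were Lcp2 (0.23), Fyn (0.039) and Cd6 (-0.14). With a sample left out, signs turned for Lcp2 (-0.022 to 0.16) and Ptprc (-0.015 to 0.074) between the populations. In CD4+ housing they turned for Lck (-0.0295 to 0.13), Zap70 (-0.094 to 0.23), Lcp2 (-0.20 to 0.10), Fyn (-0.051 to 0.068), Cd5 (-0.14 to 0.084) and Themis (-0.17 to 0.0304), and in CD8+ housing for Lck (-0.025 to 0.13) and Fyn (-0.025 to 0.20). In the interaction they turned for Lck (-0.068 to 0.094), Lat (-0.066 to 0.12), Lcp2 (-0.29 to 0.013), Fyn (-0.20 to 0.0301), Ptprc (-0.047 to 0.13), Cd6 (-0.10 to 0.14) and Themis (-0.014 to 0.36). The Fyn to Lck ratio for housing ranged from -0.18 to 0.034 in CD4+ and from -0.15 to 0.18 in CD8+ cells, and the Cd6 to Cd5 ratio between populations from -0.43 to -0.29. Of 1470 recomputed single values 1380 kept direction and side of the threshold.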
